A study of Mus musculus with 48 samples.

Results

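The myogenic regulatory factors Myod1, Myog, Myf5 and Myf6 were followed in C2C12 cells, an established mouse myoblast line whose cells fuse into myotubes in low serum. The members were the probe sets that the array's gene annotation assigns to these symbols: 5 of the 34945 probe sets with a single gene symbol, for 4 of 18193 genes. RNA levels came from 48 Affymetrix expression arrays in 16 groups of 3. Cells in growth medium (20% fetal bovine serum) were taken 24 h before induction and at 0 h. Cells moved to differentiation medium (2% horse serum) were taken at 12 times from 0.5 h to 144 h. In the other 2 groups, 50 µM cycloheximide, an inhibitor of protein synthesis, was added 1 h before induction and cells were taken 1 h and 3 h after it. The replicates came from successive passages of the same line, so p-values measure the spread between passages of 1 line and not between animals or lines. All groups are the same cell line with no labelled genetic change, and both growth medium groups serve as the untreated references.

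The 4 proteins are basic helix-loop-helix transcription factors that pair with E proteins and bind E boxes, short DNA motifs in the regulatory regions of muscle genes. Myod1 and Myf5 are known for committing cells to the muscle lineage, Myog for driving the terminal differentiation of committed myoblasts, and Myf6 (also called Mrf4) for late differentiation in addition to an early role in the embryo. Id proteins lack the basic DNA-binding region and hold E proteins in inactive pairs, and Mef2 factors act together with the myogenic factors on muscle promoters.

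Promoters are shown because Myog is a textbook target of the other myogenic factors and moved most here, whereas Myf5 moved the opposite way. The 250 bases before the start of each gene were taken from RefSeq (GRCm38.p6), which matched 2 of the 4 members, and every E box (CANNTG, a motif that reads as itself on both strands) is in capitals. The Myog window lies at chr1:134289754-134290003 on the plus strand and the Myf5 window at chr10:107486135-107486384 on the minus strand.
Myog: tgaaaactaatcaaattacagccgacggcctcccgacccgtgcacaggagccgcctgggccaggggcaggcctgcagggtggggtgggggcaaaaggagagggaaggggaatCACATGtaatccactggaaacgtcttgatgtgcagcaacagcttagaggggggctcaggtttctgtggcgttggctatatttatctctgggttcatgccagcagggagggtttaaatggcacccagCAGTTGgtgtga
Myf5: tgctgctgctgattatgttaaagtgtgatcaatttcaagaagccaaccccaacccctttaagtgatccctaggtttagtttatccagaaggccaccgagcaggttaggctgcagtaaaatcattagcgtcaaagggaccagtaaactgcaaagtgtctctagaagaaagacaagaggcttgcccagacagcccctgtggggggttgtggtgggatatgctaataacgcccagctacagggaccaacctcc
The Myog window held 2 E boxes, CACATG at 138 to 133 bases and CAGTTG at 12 to 7 bases upstream of the start, and 31.8% of the 32851 promoter windows held at least as many. The Myf5 window held 0, while 66.2% of all windows held at least 1. These letters are a description of the windows only. Myf5 and Myf6 are neighbours on chromosome 10 in the RefSeq annotation, with no protein-coding gene between them, while Myod1 lies on chromosome 7 and Myog on chromosome 1.

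The deposited values were log2 RMA values. Their medians lay between 4.003 and 4.16 on the 42 arrays without cycloheximide and between 4.20 and 4.24 on the 6 cycloheximide arrays, which were thus on a slightly higher scale. Arrays of a group correlated at 0.9818 to 0.9955. The 5 skeletal muscle lineage markers (Des, Cdh15, Myod1, Chrna1, Ncam1) were all above a group mean of 5, with a summed level from 47.2 at 24 h before induction to 53.7 at 144 h. None of the measured adipocyte (4), endothelial (5) or bone and cartilage (4) markers reached that level in any group. Of the other lists, 1 of 4 leukocyte markers (Cd3e) and 3 of 4 smooth muscle markers (Smtn, Cnn1, Lmod1) did, and Myh11, a defining smooth muscle gene, did not.

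The 4 factors followed 4 different courses. Myog rose 22.9-fold in growth medium before induction, was a further 5.67-fold higher by 24 h of differentiation, and had group means of 12.44 to 12.65 from then to 144 h. Myod1 rose 1.88-fold before induction and stayed within 0.55 log2 units from 0.5 h to 144 h. Myf5 fell from 24 h onward and was 7.66-fold lower at 96 h than at 0 h. Myf6 read below the middle of each array's values until 48 h and was called higher than at 0 h at 96 h and 144 h, by 1.66 and 2.44 log2 units from a reference too low on the array to give a fold.

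**Figure D1:**
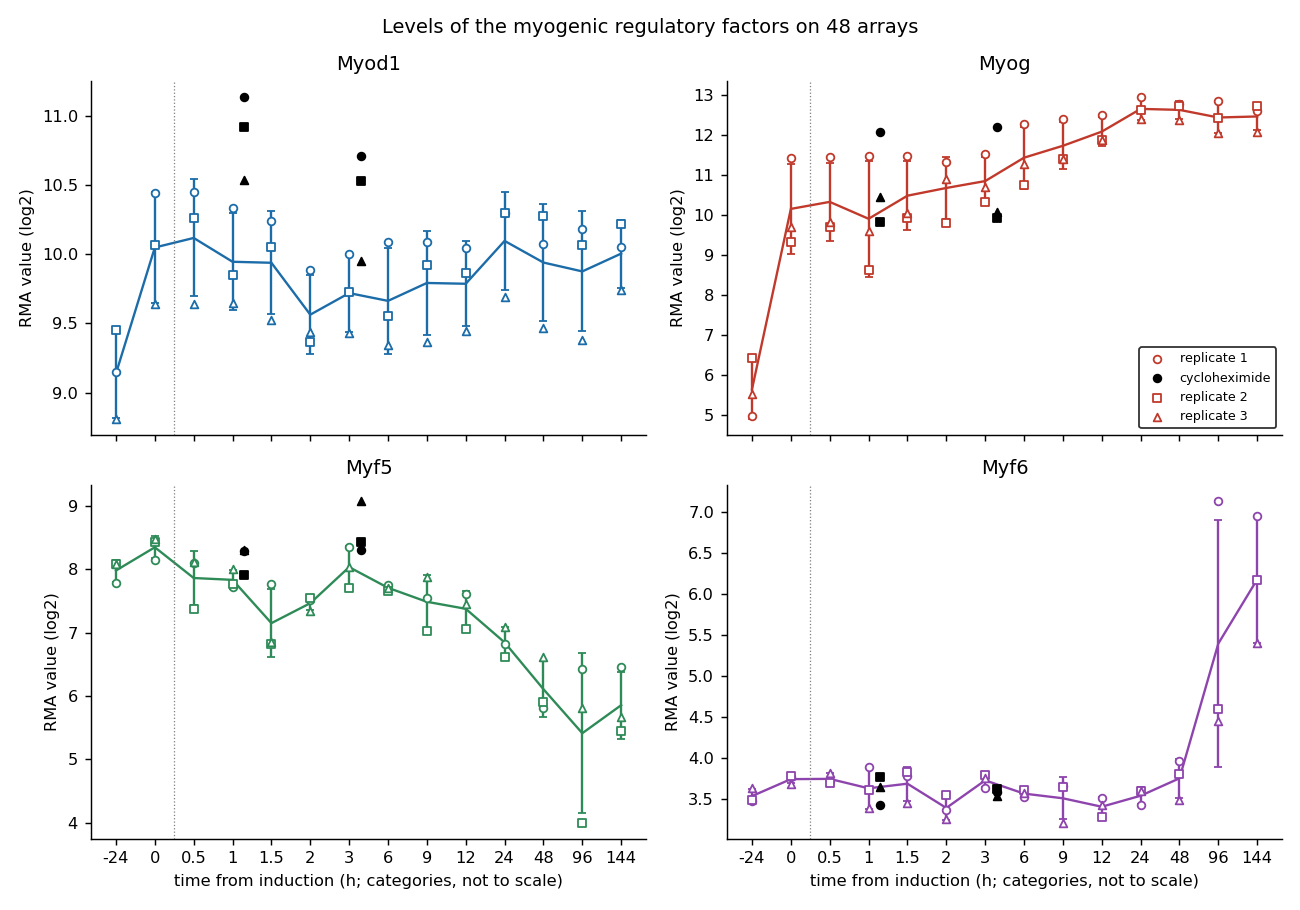
RMA values (log2) of the 4 factors by time from induction, with open symbols for the 3 replicates, lines and bars for the mean and SD, and filled black symbols for cycloheximide. Vertical scales differ between panels. Myog climbed from 5.64 to 12.65, Myf5 declined to 5.41 at 96 h, and Myf6 left its floor only at 96 h.

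Before induction, the largest movement among the 4 was that of Myog. Its 3 arrays read 4.96, 6.42 and 5.53 at 24 h before induction and 11.42, 9.32 and 9.71 at 0 h, all still in growth medium. The groups did not overlap, and the 0 h array of replicate 1 stood 1.71 above the next. The difference was 4.51 (SE 0.64, limma with Benjamini-Hochberg adjustment over all genes, adjusted p = 2.43e-06). By replicate number it was 6.46, 2.90 and 4.18. Any pairing of groups that lie apart gives positive values, and the numbers were not taken as paired at this step. In bulk RNA, more cells expressing a gene and more RNA per cell cannot be told apart.

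Myod1 was the other member called at this step, where 13.1% of all genes were called. Its arrays read 9.15, 9.45 and 8.81 at 24 h before induction and 10.44, 10.07 and 9.64 at 0 h, and the groups did not overlap. The difference was 0.91 (SE 0.28, adjusted p = 0.021). It lost its call when replicate 1 or 2 at 0 h, or replicate 1 or 3 at 24 h before, was left out, with differences of 0.71, 0.90, 0.92 and 0.75 and adjusted p from 0.062 to 0.167.

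A second Myod1 probe set read between 2.50 and 3.14 on all 48 arrays, above no more than 10.5% of the probe sets of any array, and is not used for the main values. Myf5 (difference 0.37, SE 0.35) and Myf6 (0.21, SE 0.35) were not called. Myf5 read 7.78, 8.08 and 8.08 before and 8.15, 8.42 and 8.47 at 0 h, which did not overlap either.

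In differentiation medium Myod1, whose product is the founding member of this family, spanned the least of the 4. Its group means over the 12 times ranged from 9.56 at 2 h to 10.12 at 0.5 h, a span of 0.55, against 10.05 at 0 h. It was called against 0 h at none of the 12 times, and also at none of them at an unadjusted p under 0.05. A test of any difference over the 12 times gave an adjusted p of 0.79, in a test that called 38.2% of all genes. Once replicate number was blocked on, this test passed (F = 3.96, adjusted p = 0.00203). The correlation check paired the numbers at 10 of the 12 times against 0 h, all but 1 h and 144 h. The lowest group was 2 h, with 9.89, 9.37 and 9.44, a difference from 0 h of -0.49 (SE 0.28). With the replicate number as a block this difference passed the threshold (SE 0.12, adjusted p = 0.026), since each replicate was lower at 2 h than at 0 h, by 0.55, 0.70 and 0.20.

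At 144 h the 3 arrays of Myod1 read 10.05, 10.22 and 9.74, against 10.44, 10.07 and 9.64 at 0 h. The difference was -0.04 (SE 0.28). Set against 24 h before induction instead, Myod1 was called higher at 7 of the 12 times (0.5, 1, 1.5, 24, 48, 96 and 144 h), by 0.74 to 0.98. Leaving out replicate 3 at 24 h before induction ended each of these 7 calls, with adjusted p from 0.0545 to 0.175. Against that reference, 16.5%, 16.1%, 19.6%, 26.8%, 30.1%, 38.9% and 34.8% of all genes were called at those 7 times. At 3 h and 9 h, Myod1 was not called (differences 0.58 and 0.65), but was with the replicate block (SE 0.12, adjusted p = 0.000389 and 6.12e-05), where 13.6% and 18.3% of genes were called without it. The 9 h difference also passed with housekeeping centring (0.76, adjusted p = 0.0354), with the mean of the probe sets (0.44, adjusted p = 0.0231) and without replicate 3 at 9 h (0.87, adjusted p = 0.0382). At 12 h, not called in the main fit, Myod1 passed with that centring (0.84, adjusted p = 0.0138), the mean of the probe sets (0.49, adjusted p = 0.0104) and only the arrays compared (0.65, adjusted p = 0.0418). The centring called 14.9% and 31.9% of all genes higher at 9 h and 12 h.

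Myf5, the other commitment factor, fell over the later times. Its arrays read 8.15, 8.42 and 8.47 at 0 h, its highest mean without cycloheximide (8.35). At 24 h they read 6.83, 6.62 and 7.10, and at 48 h 5.81, 5.91 and 6.61. At 96 h they read 6.43, 3.999 and 5.80, and at 144 h 6.45, 5.45 and 5.66. Each of these 4 groups lay entirely below the 0 h arrays, and the 96 h arrays were spread over more than 2 log2 units.

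Myf5 fell by 1.50 on the log2 scale at 24 h (SE 0.35, adjusted p = 0.00254), when 14% of all genes were called. It fell by 2.24 at 48 h (adjusted p = 4.34e-06), 2.94 at 96 h (adjusted p = 1.69e-08) and 2.49 at 144 h (adjusted p = 3.62e-07), when 26.7%, 32.6% and 28.4% of genes were called. The share of called genes at these times makes the call itself common. All 3 replicates were lower at each of the 4 times, which follows from the groups lying apart. Without replicate 2 at 96 h, whose value of 3.999 was the lowest Myf5 value of all arrays, the 96 h difference was -2.23 and stayed called.

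Before 24 h Myf5 dipped without a call. At 1.5 h the arrays read 7.77, 6.83 and 6.85 and did not overlap those at 0 h, but the 3 h arrays, at 8.36, 7.70 and 8.04, overlapped them again. The 1.5 h difference was -1.20 (SE 0.35, adjusted p = 0.138), at a time when 0.423% of all genes were called. With the replicate block it was called (SE 0.30, adjusted p = 0.0347), although the size came from replicates 2 and 3, at -1.60 and -1.62 against -0.38 in replicate 1. At 12 h the arrays read 7.61, 7.06 and 7.46, a difference of -0.97 (adjusted p = 0.152, or 0.046 with the block). Without the block, 2.82% of genes were called at that time. Against 24 h before induction Myf5 was called lower at 24, 48, 96 and 144 h, by 1.14, 1.87, 2.57 and 2.13 in size, and at 1.5 h with the block (adjusted p = 0.0372). The 24 h call against that reference was lost without replicate 2 at 24 h (-1.02, adjusted p = 0.0622).

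Myog, the differentiation factor, rose further in differentiation medium. Its arrays read 11.42, 9.32 and 9.71 at 0 h and 11.48, 8.63 and 9.60 at 1 h, which overlapped widely. At 6 h they read 12.27, 10.76 and 11.26, and at 12 h 12.50, 11.87 and 11.88, all 3 above every 0 h array. At 24 h they read 12.95, 12.62 and 12.39, the highest mean of any group (12.65 ± 0.28, SD, n = 3). The replicates thus lay 2.10 log2 units apart at 0 h and 0.56 apart at 24 h.

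The difference from 0 h was 1.28 at 6 h, 1.58 at 9 h and 1.93 at 12 h (SE 0.64), with adjusted p of 0.629, 0.309 and 0.103, when 0.506%, 1.36% and 2.82% of all genes were called. With the replicate block the 9 h and 12 h differences passed the threshold (SE 0.44, adjusted p = 0.0286 and 0.00388). Leaving out replicate 1 at 0 h also brought 12 h past it (2.57, adjusted p = 0.0377). At 24 h Myog was called, at 2.50 (SE 0.64, adjusted p = 0.0058). That call was lost without replicate 2 at 0 h, the lowest array of its group (2.09, adjusted p = 0.0535). The differences at 48, 96 and 144 h were 2.48, 2.29 and 2.31, all called. The early rise in growth medium was thus 4.51 of the 7.02 log2 units between 24 h before induction and 24 h after, or 64.3%.

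Against 24 h before induction Myog was called higher at each of the 12 times, by 4.27 at 1 h to 7.02 at 24 h, including 2, 6 and 12 h, when 14.8%, 14.5% and 18.7% of genes were called. No pair of neighbouring times in differentiation medium showed a called change in Myog. Ordered by mean, its 16 groups formed 15 neighbouring pairs, and only the step from 24 h before induction to 1 h, the 2 lowest means, left the arrays of a pair apart. Ordered likewise, 1 of 15 pairs was apart for Myf5 (24 h and 48 h), 1 for Myf6 (48 h and 96 h) and 0 for Myod1. The difference of a pair exceeded its pooled SD in 2 pairs for Myf5, 2 for Myod1, 1 for Myog and 1 for Myf6. Sorting by mean makes neighbours close by construction, so no conclusion is drawn from their overlap.

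Myf6, the last of the 4 to appear in these cells, was at its floor for most of the course. From 24 h before induction to 48 h, with and without cycloheximide, its values lay between 3.21 and 3.96 and below the median of the array. At 96 h the arrays read 7.14, 4.61 and 4.45, and at 144 h 6.96, 6.18 and 5.41. All 6 lay above every earlier array, and replicate 1 was 2.53 above the next replicate at 96 h. The differences from 0 h were 1.66 (SE 0.35, adjusted p = 0.000226) and 2.44 (adjusted p = 4.39e-07). Both start from a reference at the low end of the arrays, so no fold is given. Against 24 h before induction the differences were 1.86 and 2.65, both called.

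The step from 48 h to 96 h was the only called change of any member between neighbouring times in differentiation medium (1.65, SE 0.35, adjusted p = 0.00184), where 4.64% of all genes were called. It rested on the spread shared by all 16 groups. Fitted on the 6 arrays compared alone, the adjusted p was 0.445, and that of 96 h against 0 h was 0.0922. Without replicate 1 at 96 h the step was 0.78 (adjusted p = 0.0401) and the rise from 96 h to 144 h became called (1.65, adjusted p = 2.38e-05, against 0.78 and 0.554 with all arrays). The array of replicate 1 at 96 h therefore sets how the late rise of Myf6 divides between the last 2 intervals. The same array moved Myf5, whose step from 48 h to 96 h was -0.70 (adjusted p = 0.357) with it and -1.21 (adjusted p = 0.0499) without it. Without replicate 2 at 96 h the Myf5 step was 0.01 (adjusted p = 0.997).

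Early in differentiation, 0.0385%, 0.192%, 0.517% and 0.39% of all genes were called against 0 h at 0.5, 1, 2 and 3 h, when no member was. At an unadjusted p under 0.05, Myf5 passed at 1.5, 2, 9 and 12 h and Myog at 9 and 12 h. Passing unadjusted was common, since 1850, 1355, 1884 and 2449 of all 18193 genes did so at the times listed for Myf5, in that order. Between neighbouring times from 0.5 h to 24 h, 0.066% (1 h against 0.5 h), 0.0495%, 0%, 0.044%, 0.066%, 0%, 0% and 1.34% (24 h against 12 h) of genes were called, and no member was, also not unadjusted. The steps with 0 called genes (2 h against 1.5 h, 9 h against 6 h, 12 h against 9 h) had 717, 594 and 646 genes at an unadjusted p under 0.05, and 0 with limma's trended, robust fit. From 24 h to 48 h and from 96 h to 144 h, 3.89% and 0.313% of genes were called. Over all 12 times together Myf5 (F = 13.2, adjusted p = 1.14e-08), Myf6 (F = 11.9, adjusted p = 3.71e-08) and Myog (F = 5.13, adjusted p = 0.000303) passed, and Myod1 passed with the replicate block and not without it.

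**Figure D2:**
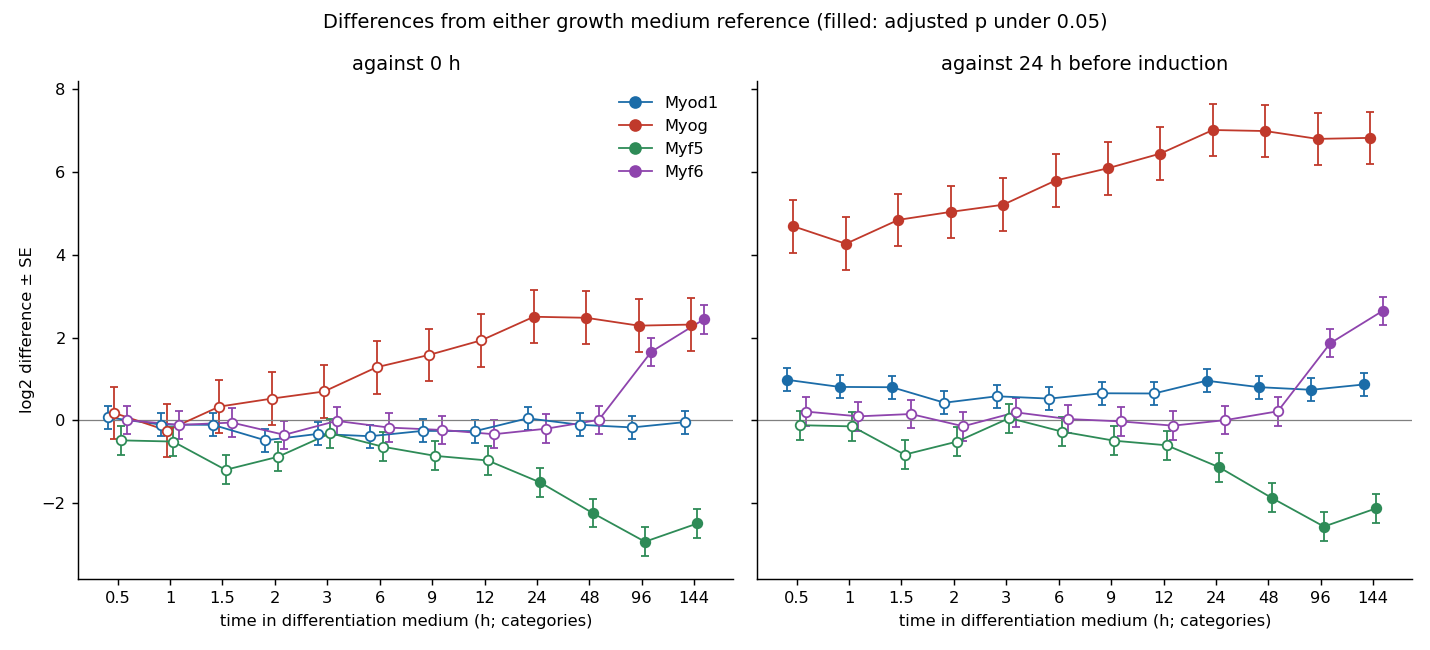
Log2 differences (limma, ± SE) of the 4 factors at 12 times of differentiation from 0 h (left) and from 24 h before induction (right), filled where the adjusted p was under 0.05. Against 0 h, Myf5 and Myog were called from 24 h and Myf6 from 96 h. Against 24 h before, Myog was called throughout.

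The 3 replicates, from successive passages, differed in level in a way that followed the replicate number. Replicate 1 had the highest Myog value in 14 of the 16 groups, the exceptions being 24 h before induction, where it was the lowest, and 144 h. For Myod1 replicate 1 was highest in 12 groups and replicate 3 lowest in 15. At 0 h the deviation of Myog from its group mean was 1.27 in replicate 1, -0.83 in replicate 2 and -0.44 in replicate 3. At that time the 34 muscle genes listed as bound by the myogenic factors had median deviations of 0.67, -0.46 and -0.13. Of the 34, 30 were highest in replicate 1. At 24 h before induction only 11 of the 34 were, and at 24 h of differentiation the 3 median deviations had come to 0.18, -0.05 and -0.13. The same count over all genes is not given here. Deviations over all genes also followed the replicate number, with a median correlation of 0.31 between same-numbered arrays. The replicates are successive passages, so replicate number and passage cannot be told apart.

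**Figure D3:**
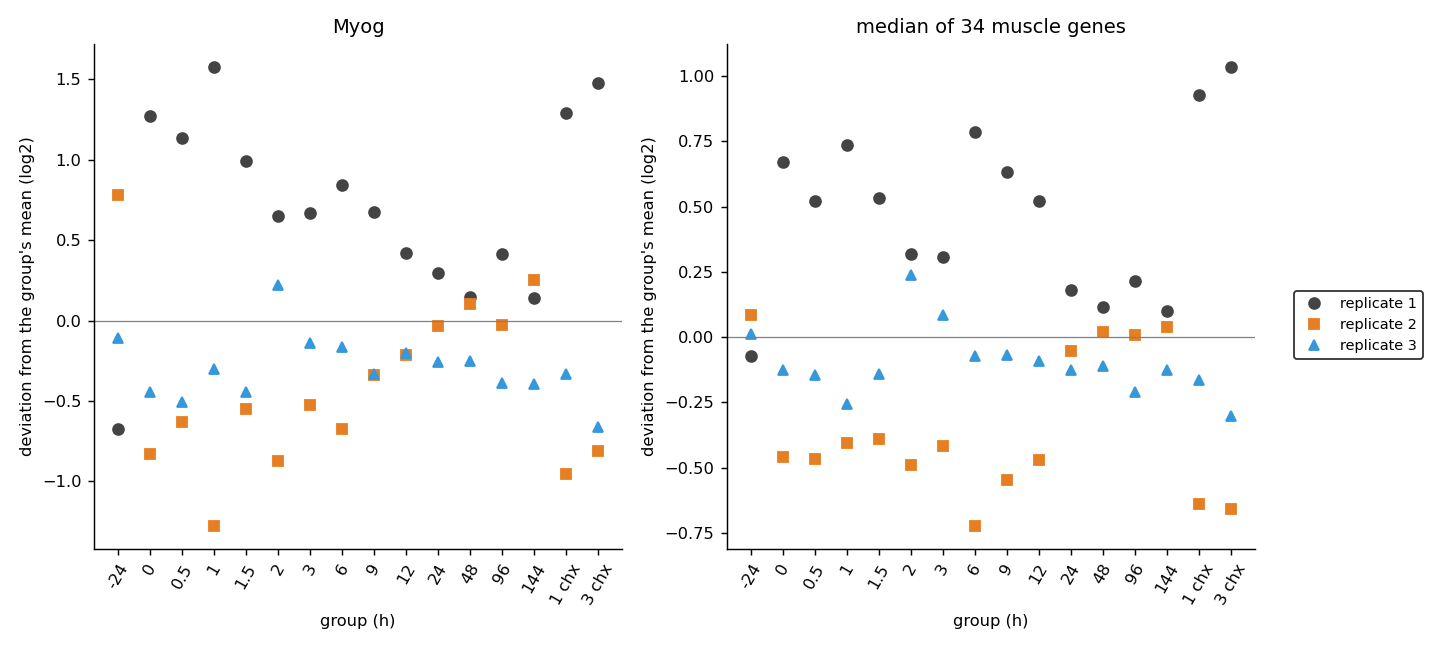
Deviation of each replicate from its group mean (log2) for Myog (left) and for the median of 34 muscle genes (right) in the 16 groups (chx, cycloheximide). Replicate 1 lay above the others from 0 h to 12 h in both panels, and the 3 replicates drew together from 24 h to 144 h.

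A subset of replicates 2 and 3 of every group was chosen after the values were seen. It leaves out replicate 1, the highest for Myog at 0 h, so calls gained in it are no independent support. In this subset Myog still rose before induction (3.54, adjusted p = 2.25e-06), and its 9 h and 12 h differences from 0 h were called (1.88 and 2.36, adjusted p = 0.00747 and 0.000453). Myod1 was then not called before induction (0.72, adjusted p = 0.283).

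With cycloheximide 1 of the 4 transcripts, Myod1, was called higher at 1 h, a call that was lost when the arrays were rescaled. Its arrays read 11.13, 10.92 and 10.53 with the inhibitor and 10.33, 9.85 and 9.65 without it at 1 h, and did not overlap. This was the highest Myod1 mean of all 16 groups (10.86 ± 0.30, SD, n = 3). The difference was 0.92 (SE 0.28, adjusted p = 0.0139), or 1.89-fold, and 0.80, 1.06 and 0.88 in the 3 replicate numbers, when 24.6% of all genes were called. Against 0 h it was 0.81 (adjusted p = 0.0256), with 29% of genes called.

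At 3 h the Myod1 arrays read 10.71, 10.53 and 9.95 with cycloheximide and 9.999, 9.73 and 9.43 without it, which overlapped between replicates. The difference was 0.68 (SE 0.28, adjusted p = 0.055), where 34.4% of all genes were called. With the replicate block it passed (SE 0.12, adjusted p = 2.07e-05). Without replicate 1 at 3 h or replicate 3 of the cycloheximide group it also passed (0.82 and 0.90). Against 0 h the 3 h difference was 0.35, not called where 33.8% of genes were, but called with the block (adjusted p = 0.0199). From cycloheximide 1 h to 3 h it was -0.46, not called where 11.8% of genes were, but called with the block (adjusted p = 0.00487). These shares of genes are those without the block.

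The scale of the 6 cycloheximide arrays moves with these results. The median difference over all 18193 genes was 0.20 at 1 h and 0.19 at 3 h. After the arrays were quantile normalized again it was -0.01 at both times, and the Myod1 difference at 1 h was 0.79 (adjusted p = 0.0658). Centred on 10 housekeeping genes it was 0.71 (adjusted p = 0.1004). Against 0 h these settings gave 0.70 (adjusted p = 0.114) and 0.72 (adjusted p = 0.0688). The Myod1 call at 1 h was also lost without replicate 3 at 1 h (0.77, adjusted p = 0.0796) or replicate 1 of the cycloheximide group (0.78, adjusted p = 0.0706). Requantiling together with the replicate block, chosen after these values were seen, gave 0.79 with an adjusted p of 2.12e-05, but the numbers did not pair the samples at 1 h by the correlation check. The Myod1 difference at 1 h was positive in every setting run.

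Myog, Myf5 and Myf6 were not called in either cycloheximide comparison. Myog arrays read 12.07, 9.82 and 10.44 at 1 h and 12.21, 9.91 and 10.06 at 3 h with the inhibitor, against 11.48, 8.63 and 9.60 and 11.51, 10.32 and 10.71 without it. The differences were 0.87 and -0.12 (SE 0.64), so that a change of about 1 log2 unit in Myog could not be resolved. With replicates 2 and 3 alone, a subset chosen after the values were seen, the Myog difference at 1 h passed the threshold (1.02, adjusted p = 0.0428).

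Myf5 read 8.29, 7.92 and 8.30 at 1 h and 8.30, 8.43 and 9.08 at 3 h with cycloheximide, against 7.72, 7.77 and 8.003 and 8.36, 7.70 and 8.04 without it. The differences were 0.34 and 0.57 (SE 0.35). Myf6 stayed at its floor, with differences of -0.02 and -0.14. The change of the cycloheximide effect from 1 h to 3 h was -0.24 (SE 0.39) for Myod1, -0.99 (SE 0.90) for Myog, 0.23 for Myf5 and -0.13 for Myf6, none called, where 4.29% of genes were.

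**Figure D4:**
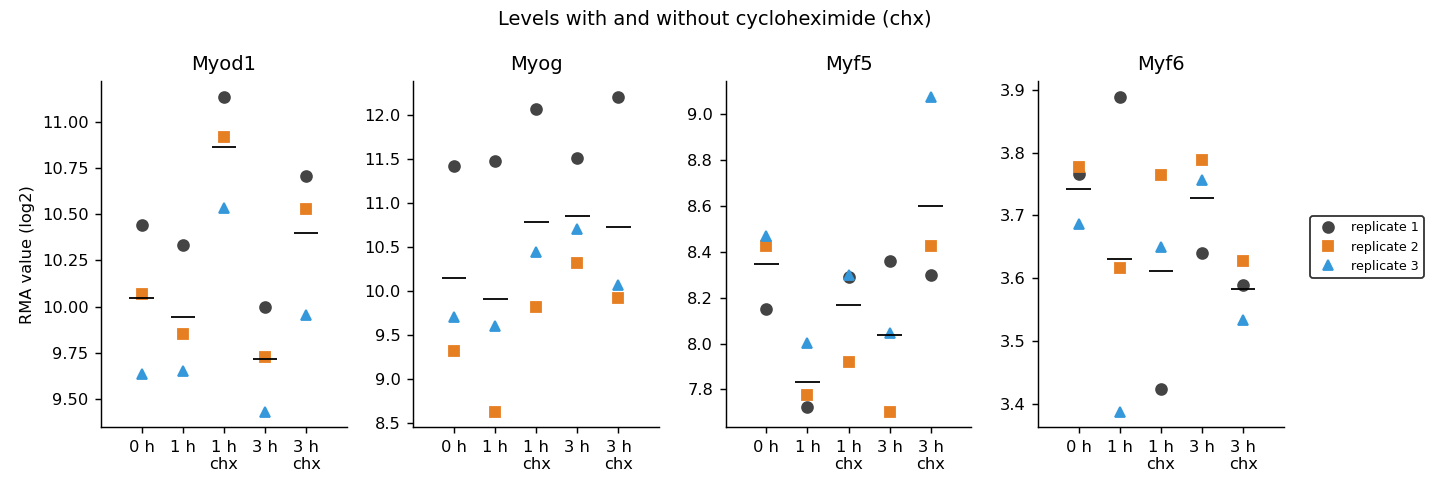
RMA values (log2) of the 4 factors at 0 h and at 1 h and 3 h with and without cycloheximide (chx), with symbols for the 3 replicates and bars for the means. Vertical scales differ between panels. The 3 Myod1 arrays with cycloheximide at 1 h lay above the 3 without it.

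The partners and inhibitors of the factors were read from lists of textbook genes, given by how many passed in each direction and by the median, with no test of the list. Of the 3 E proteins, Tcf12 rose by 0.52 before induction (adjusted p = 0.0488) and fell by 0.77 from 0 h to 144 h (adjusted p = 0.000841). The others were not called in these comparisons. Among all genes, 7.26% were called higher before induction and 14.9% lower at 144 h. Of the 4 Id genes, 2 fell at 3 h (Id1 by 1.64 and Id3 by 1.44, adjusted p = 0.0131 and 0.00815), when 0.192% of all genes were called lower. Id1, Id2 and Id3 were called lower at 24 h (-1.02, -1.53 and -1.53) and at 144 h (-1.61, -1.62 and -2.76). Among all genes, 7.42% and 14.9% were called lower at these times. The median of the 4 Id genes was -1.27 at 24 h, against 0.05 over all genes. No Id gene was called between the 2 growth medium groups, where the median was -0.09.

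With cycloheximide all 4 Id genes were called higher at 1 h (Id1 by 2.87, Id3 by 1.59, Id4 by 1.29, Id2 by 1.10) and at 3 h (Id4 by 3.84, Id1 by 3.63, Id3 by 2.65, Id2 by 2.12). Their median was 1.44 and 3.14, against 0.20 and 0.19 over all genes, of which 24.2% and 30.9% were called higher. After requantiling or housekeeping centring, 3 of 4 were called at 1 h and 4 of 4 at 3 h. Of all genes, requantiling called 4.42% and 12.9% higher at these times, and the centring 5.74% and 30.7%.

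Among 15 other genes known to restrain the myogenic factors, 5 were higher and 2 lower at 24 h, when 6.56% of all genes were called higher and 7.42% lower. At 144 h 8 were higher and 2 lower, against 13.5% and 14.9% of all genes. Snai2, a zinc finger repressor, fell by 1.51 and 2.58 at these times and Twist2 by 0.89 and 1.62, while Heyl, a Notch target, rose by 1.58 and 1.82. Heyl had also risen by 2.21 before induction. With cycloheximide at 1 h 7 of the 15 were called higher, led by Hes1 (2.35) and Snai1 (1.74), when 24.2% of all genes were. After requantiling 3 were, against 4.42% of all genes, and with housekeeping centring 4, against 5.74%.

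Of the 4 Mef2 genes, Mef2c rose by 2.10 at 24 h and 5.83 at 144 h, Mef2d by 0.84 and 1.17, and Mef2a by 0.95 at 24 h. Among all genes, 6.56% were called higher at 24 h and 13.5% at 144 h. Of 20 measured upstream regulators, 5 were higher and 0 lower at 0 h than 24 h before, when 7.26% of all genes were called higher and 5.86% lower. Among the 5 were Pax7, a marker of muscle stem cells (0.80), and Srf (0.68). At 144 h 3 were higher and 4 lower, against 13.5% and 14.9% of all genes. Tead4 was at 3.51, Klf5 at 1.79, Eya4 at -1.98 and Eya1 at -1.92. Housekeeping centring gave 7 higher and 2 lower, against 45.4% and 9.23% of all genes. That centring moved the median of all genes from 0.04 to 0.28. Of 17 chromatin cofactors, 4 were higher and 1 lower before induction, against 7.26% and 5.86% of all genes. At 144 h 6 were lower and 0 higher, against 14.9% and 13.5% of all genes. The falls were led by Ezh2 (-1.40), a histone methyltransferase of silenced genes, and Smarca2 (-1.37). With that centring 4 were lower and 1 higher, against 9.23% and 45.4% of all genes.

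The 34 muscle genes listed as bound by the factors had none called at 3 h (median 0.35), but 17 called higher and 0 lower already between the growth medium groups (median 1.31, against 0.01 over all genes, of which 7.26% were called higher). Actc1, a sarcomeric actin, rose by 4.36 there, Tnnc2 by 4.17, Mylpf by 3.86 and Myl1 by 3.71, at the step where Myog rose by 4.51. At 24 h and 144 h all 34 were called higher than at 0 h, against 6.56% and 13.5% of all genes (median 3.40 and 4.02), with Myh3, the embryonic myosin heavy chain, at 5.27 and 5.56 and Ckm, muscle creatine kinase, at 4.91 and 5.66. None of the 34 was called with cycloheximide at 1 h or 3 h, when 24.6% and 34.4% of all genes were. Their medians were 0.48 and 0.10, against 0.20 and 0.19 over all genes. The SE ran from 0.09 (Chrna1) to 0.80 (Myh3), so the absence of calls does not show that these genes were unchanged. With the replicate block 6 were called higher at 1 h, where the numbers did not pair the samples by the correlation check. With replicates 2 and 3 alone, a subset chosen after the values were seen, 4 were. The share of all genes called in these 2 fits is not given here, and the main fit called 24.2% of all genes higher at 1 h. Neither count is therefore read as a result about these genes.

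**Figure D5:**
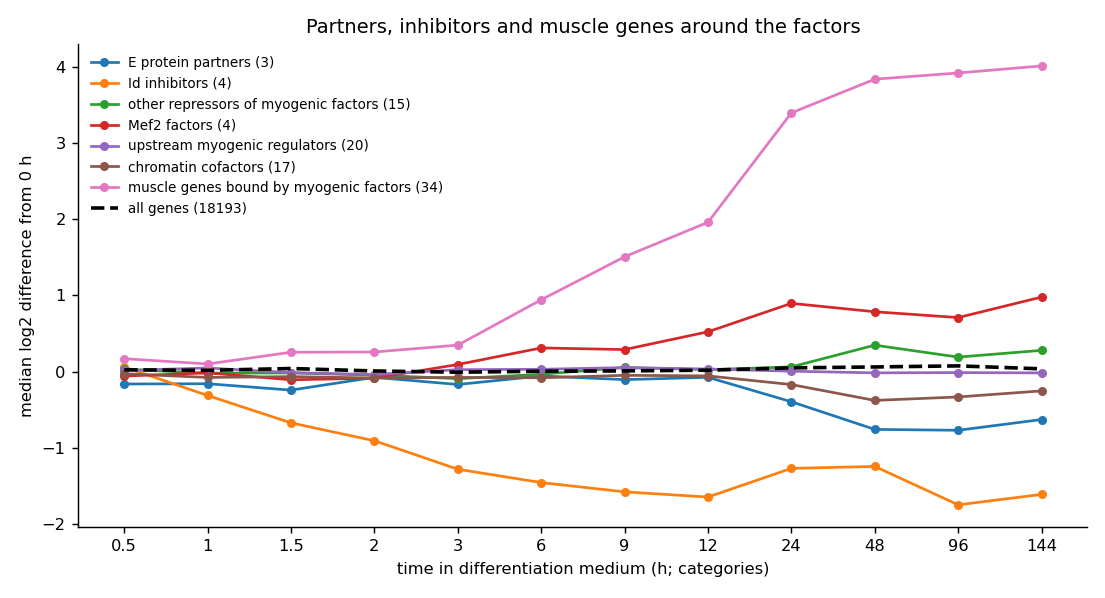
Median log2 difference from 0 h at 12 times of differentiation for the 7 gene lists around the factors, with the number of genes measured, and for all 18193 genes (dashed). The muscle genes rose to a median of 4.02 at 144 h and the Id genes lay at -1.27 at 24 h.

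The genes most like each factor were taken by Pearson correlation over the 42 arrays without cycloheximide, among 3568 genes whose group means spanned at least 1 log2 unit. The arrays share a time course and passages, so these values are descriptions. For Myog they were Actc1 (r = 0.976), Rbm24 (0.968), Mylpf (0.959), Stac3 (0.952) and C1qtnf3 (0.951), and the most opposite were Car8 (-0.970), Sfxn1 (-0.931) and Acsl5 (-0.917). Actc1 rose with it from a mean of 5.31 at 24 h before induction to 9.67 at 0 h and 13.06 at 24 h.

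For Myf5 the genes were Nr2c2 (0.948), Snai2 (0.947), Sgpp1 (0.945), Tshz1 (0.944) and Bhlhb9 (0.943), and opposite to it Ebp (-0.919), Tmbim4 (-0.892) and Cmklr1 (-0.886). Snai2 went from a mean of 11.01 at 0 h to 9.50 at 24 h and 8.43 at 144 h. For Myod1, which spanned little, the closest were Ttyh2 (0.851), Lmf1 (0.847), Trappc9 (0.839), Mtch1 (0.824) and Sirt2 (0.824), and the most opposite Impa1 (-0.743), Pbdc1 (-0.710) and Nupl1 (-0.708).

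For Myf6 they were Ctsc (0.937), Camk2b (0.926), Mybpc1 (0.925), Ampd1 (0.920) and Mylk3 (0.916), with Fabp5 (-0.873), Fbxo5 (-0.860) and Cdk1 (-0.858) opposite. The 5 genes most like Myf6 had rank correlations with it of only 0.33 to 0.55, so their values rest mainly on the 6 arrays of 96 h and 144 h. Those of Fabp5, Fbxo5 and Cdk1 were -0.56, -0.41 and -0.26. Among the members, Myod1 and Myog had r = 0.57, Myog and Myf5 -0.50, and Myf5 and Myf6 -0.51 over the 42 arrays.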

How the data were processed

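RNA from C2C12 cells was hybridised to 48 arrays (16 groups of 3). The deposited series table holds log2 values that the authors made with RMA, per the submitters' processing notes; whether all arrays were normalized together, and on which build probe sets were annotated, is not given in the sources used here. Array number, not read depth, limits precision. Of 45101 probe sets, those with a single gene symbol were kept, and each gene was represented by the probe set of highest mean (18193 genes). limma 3.58.1 in R 4.3.3 was fitted with 1 coefficient per group on all 48 arrays (32 residual degrees of freedom), with Benjamini-Hochberg adjustment over all genes for each comparison and a two-sided threshold of 0.05. Each call means an adjusted p under it. The procedure was tested on simulated data.

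The members and gene lists were chosen with earlier results of these data known. Named genes were the 4 members, the 5 most like and 3 most opposite genes of each, and up to 4 called genes of largest difference per list and comparison. Genes with only a clone or predicted name were not named.

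Same-numbered replicates were taken as paired in a comparison where all 3 correlations of their deviations from the group means exceeded 0.1 (over all groups, 300 of 360 same-number pairs did, median 0.31, against -0.17 for different numbers). Alternatives were another quantile normalization, centring on 10 housekeeping genes, a trended robust fit, the replicate block, other probe set rules, a filter, subsets of arrays, and leaving out each array. Promoter windows and gene order came from RefSeq.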

Additional observations from a re-analysis of the deposited data

How the results depend on the processing

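Of 3228 alternative values computed for the members, 3128 stayed on the same side of the threshold, 51 gained a call, 49 lost one, and none reversed a call. Of the 3128, 141 were uncalled values whose sign changed, and the others kept their direction. Before induction, leaving out 1 array moved Myod1 between 0.71 and 1.12, and replicates 2 and 3 alone gave 0.72 (adjusted p = 0.283). Leaving out 1 array moved Myog at 24 h against 0 h between 2.09 and 3.14. Myod1 with cycloheximide at 1 h ran from 0.77 to 1.11 on leaving out 1 array, and was 0.79 after requantiling and 0.71 with housekeeping centring, neither called. At 3 h it ran from 0.52 to 0.90 on leaving out 1 array and gained its call with housekeeping centring (0.70), a filter on group means above 5 (0.68), only the arrays compared (0.68), the mean of its probe sets (0.44), the replicate block (0.68), and requantiling with the block (0.55). Myog with cycloheximide at 1 h gained a call with replicates 2 and 3 alone (1.02). These 2 last settings were chosen after seeing the data. Causes were not tested.

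Where the replicate block changed a call and the numbers paired the samples, the value stands beside the result. Where the pairing was not borne out, the block also called Myod1 at 2, 6 and 12 h against 24 h before induction. It changed no other member call. Numbers of arrays, not depth, limit these values, and Myf6 before 96 h is too low on the array to be read as a level.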
